A study of Mus musculus with 26 samples.

Results

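Klf2, Klf4 and Klf5 encode Krüppel-like factors, zinc finger transcription factors that bind CACCC and GC-box sequences and help to hold mouse embryonic stem cells (ESCs) in the naive state. The 3 genes were taken by name, out of 21521 protein-coding genes placed on the chromosomes of the boundary list. Each was described by the Micro-C domain it lies in, by the boundaries on both sides and by the genes around it. Micro-C is a chromosome conformation assay that cuts chromatin with micrococcal nuclease, and a domain here means the sequence lying between a boundary and the next one.

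The study made 26 libraries in 5 groups from the RAD21-dTAG line, a Bruce-4 derived mouse line of C57BL/6J genotype in which the cohesin subunit RAD21 can be degraded. In G1, ESCs were given 500 nM dTAG (6 libraries), 20 µM A485 (6 libraries) or 0.05% v/v DMSO (6 libraries), and epiblast-like cells were given dTAG (4 libraries) or DMSO (4 libraries). For replicates 4 to 6 of the dTAG and A485 ESC groups, the labelled growth protocol is that of the epiblast-like cells although the labelled cell type is ESC, and these libraries are not used here. The boundary list used here comes from the DMSO-treated ESC libraries, pooled. These cells grew in serum/2i/LIF medium, and they carry the RAD21 tag without the agent that degrades it. Whether the line is a single clone, and whether the libraries came from separate cultures, is not given in the sources used here. The list holds 3515 intervals of 25 kb, bounding 3495 domains, with no score, no replicate values and unknown contact depth, so every value below is a description of 1 pooled list with no test. Differences under the 25 kb width of an interval are not resolved. Expression was not measured in these data, so the ESC label was not checked against marker genes.

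As background, the naive state is kept by a network in which LIF signals through STAT3 and raises Klf4, OCT4 acts on Klf2, and block of MEK and ERK signalling favours Klf2. Klf2, Klf4 and Klf5 overlap in function in mouse ESCs, and losing all of them together makes the cells differentiate. Klf4 is also a reprogramming factor. Enhancers active in mouse ESCs have been described downstream of Klf4, between it and Rad23b.

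The promoters of Klf2 and Klf4 are shown first, because they can hold the letters that the family itself binds and lie far inside the domains, with start sites 244.1 kb (Klf2) and 257.5 kb (Klf4) from a boundary. Both are the 250 bases before the start site, from RefSeq on GRCm38.p6, the build also called mm10. Klf2 lies on the plus strand (chr8:72318812-72319061) and Klf4 on the minus strand (chr4:55532476-55532725). Capitals mark CACCC or GGGCGG on either strand, and copies may overlap.
Klf2: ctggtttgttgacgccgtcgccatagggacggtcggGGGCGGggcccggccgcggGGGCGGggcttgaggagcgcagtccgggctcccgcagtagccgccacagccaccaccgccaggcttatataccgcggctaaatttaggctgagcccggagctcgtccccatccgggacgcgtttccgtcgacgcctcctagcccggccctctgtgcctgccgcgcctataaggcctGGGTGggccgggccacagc
Klf4: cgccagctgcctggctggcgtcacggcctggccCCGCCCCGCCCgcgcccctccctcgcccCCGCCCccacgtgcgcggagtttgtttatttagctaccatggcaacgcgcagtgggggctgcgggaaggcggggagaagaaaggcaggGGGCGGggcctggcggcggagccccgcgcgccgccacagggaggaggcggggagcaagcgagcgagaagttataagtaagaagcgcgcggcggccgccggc
The Klf2 promoter held GGGCGG 2 times and CACCC 1 time. The Klf4 promoter held GGGCGG 4 times and CACCC 0 times. Across the 32851 promoters of the table, cut to the same 250 bases, 32.7% held GGGCGG at least once and 52.0% held CACCC. Among the 21045 promoters of protein-coding genes, 43.1% held GGGCGG and 54.4% held CACCC. At least as many copies of GGGCGG as at Klf2 were found in 16.7% of all promoters, and at least as many as at Klf4 in 4.09%. Both promoters were rich in G and C, at 71.2% for Klf2 and 74.0% for Klf4, against a median of 52.4% over all promoters of the table. High values were not particular to the Klf promoters. The same window held 70.8% at Rad23b, near Klf4, and 74% at Mzt1, near Klf5, but 48% at Klf12, also near Klf5. The STAT motif, TTCC and GAA with any 3 bases between, was in neither the Klf2 nor the Klf4 window and in 3.27% of all promoters. CCCTC, part of the CTCF motif, was found 1 time at Klf2 and 2 times at Klf4, and 60.5% of promoters held it. A match of letters is a description of the window and not a binding site.

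All 3 genes lay deep inside domains, at nearly the same distance from the nearer boundary. That distance was 244 kb for Klf2, 252 kb for Klf4 and 249 kb for Klf5, measured from the nearer gene end to the nearer edge of the interval. The range of 8.07 kb is below the 25 kb width of an interval, so the 3 distances have no resolved order. In each case the nearer boundary was the one at the lower coordinate. Among the 17906 protein-coding genes wholly inside a domain, 50.1% had their nearer boundary on that side. The lower side is upstream of Klf2 and downstream of Klf4, and no strand was available for Klf5. The median distance over all protein-coding genes was 98.9 kb. Of those genes, 23.1% lay farther from a boundary than Klf2, 22.25% farther than Klf4 and 22.6% farther than Klf5. None of the 3 had an end inside a boundary or within 10 kb of one, where 18.3% of protein-coding genes did, and none had one within 50 kb, where 35.6% did.

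The domains themselves differed in length and in gene content. Klf2 shared a domain of 525 kb with many genes, Klf4 lay in 1425 kb with a single coding neighbour, and Klf5 lay in 850 kb with 3. The longest of the 3 domains was 2.71 times the shortest. Coding gene density was 3.24 per 100 kb around Klf2, 0.140 around Klf4 and 0.471 around Klf5, a ratio of 23.1 between the densest and the sparsest. The median domain of the whole list was 500 kb long and held 3 protein-coding genes. Counted by gene instead, the domain of a protein-coding gene had a median length of 675 kb and a median of 12 protein-coding genes. By that count the Klf2 domain was shorter than most, since 63.08% of protein-coding genes lay in a longer one. The share was 12.86% for Klf4 and 34.98% for Klf5. The map of the 3 domains shows the even distance on the lower side beside the uneven one on the upper side.

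**Figure D1:**
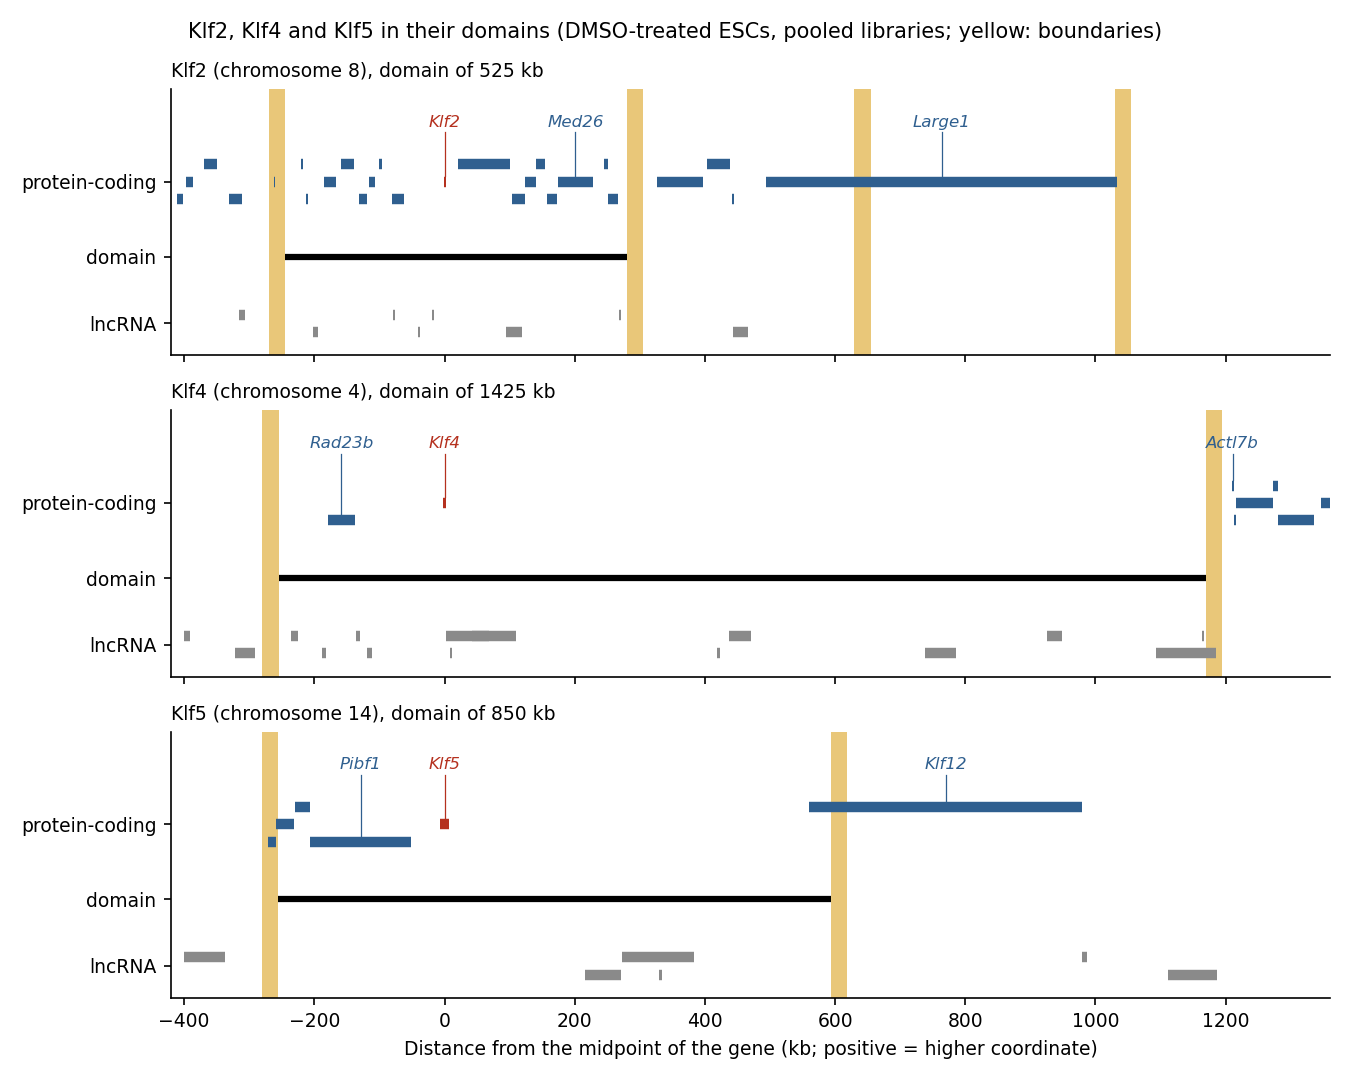
Genes and boundaries around Klf2, Klf4 and Klf5, plotted by distance in kb from the midpoint of each gene; yellow bands are boundary intervals, the black line is the domain, blue bars are protein-coding genes, grey bars are lncRNA genes and the named gene is red. The nearer boundary lies 244, 252 and 249 kb below Klf2, Klf4 and Klf5, while the upper one lies 278, 1167.5 and 587 kb away.

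Klf2, which in the adult is also known for roles in endothelial and T cells, occupies 2593 bases of chromosome 8 (chr8:72319062-72321654). Its domain ran from 72075001 to 72600000. The lower boundary (72050001 to 72075000) was 244 kb away and the upper one (72600001 to 72625000) 278 kb away. The midpoint of Klf2 thus stood at 46.7% of the length of its domain, close to the middle. Of all domains, 45.95% were longer.

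The Klf2 domain was crowded for its length. It held 17 protein-coding genes, 8 on each side of Klf2, and these covered 59.0% of its bases. The 200 domains nearest to it in length (500 to 550 kb) had a median of 4.0 protein-coding genes, with quartiles of 2 and 8, and 13 of them held as many as 17. On the lower side lay the odorant receptor genes Olfr373 and Olfr374, the tropomyosin gene Tpm4, the small GTPase gene Rab8a, Hsh2d, Cib3, Fam32a and Ap1m1, which encodes an adaptor subunit of clathrin coats. The nearer end of Ap1m1 was 61.7 kb from Klf2, and in between lay the lncRNA genes Gm51537 and Gm40505 and the pseudogenes Gm39197 and Gm10282, of which Gm10282 came closest, 13.75 kb from Klf2. On the upper side the nearer end of the endocytic adaptor gene Eps15l1 was 19.3 kb away, which is its 3′ end, since the gene is on the minus strand. Beyond it came Calr3, 1700030K09Rik, Cherp, Slc35e1, Med26, which encodes a Mediator subunit, Smim7 and Tmem38a. Enhancer positions of Klf2 are not in the files, and no side was assigned to them.

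At the lower end of the Klf2 domain the odorant receptor gene Olfr372 lay wholly inside the lower boundary, while Olfr373 and Olfr374 lay in the domain. Beyond that boundary was a domain of 250 kb with the zinc finger genes Zfp709, Zfp882, Zfp617 and Zfp961, Gm5373 and Cyp4f18. No protein-coding gene touched the upper boundary. The nearest one inside was Tmem38a, 12.7 kb from it, and the nearest one outside was Nwd1, 21.2 kb from it, in a domain of 325 kb with Sin3b, a corepressor gene, and F2rl3. Within 1000 kb of Klf2 there were 4 boundaries, against a median of 3 for protein-coding genes.

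Klf4 occupies 5339 bases of chromosome 4 (chr4:55527137-55532475), with its start at the higher coordinate. Its domain, from 55275001 to 56700000, was among the longer ones of the list, since 9.01% of domains were longer. The lower boundary (55250001 to 55275000), on the downstream side of the gene, was 252 kb away. The upper boundary (56700001 to 56725000), on the upstream side, was 1167.5 kb away, 4.63 times as far. The median of this ratio over protein-coding genes wholly inside a domain was 3.58. Klf4 therefore stood at 17.9% of the length of its domain.

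The only other protein-coding gene in the Klf4 domain was Rad23b, which encodes a nucleotide excision repair factor. It lay on the downstream side, between 75.04 kb from the lower boundary and 134.9 kb from Klf4. The described downstream enhancers of Klf4 would thus share its domain, with no boundary between them and the gene, although neither enhancers nor contacts were measured in the list. The stretch between Rad23b and Klf4 held the snoRNA gene Gm22150, 57.98 kb from Klf4, and the lncRNA genes Gm12505 and Gm34290. Coding genes covered 3.34% of the domain.

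Upstream of Klf4 there was no protein-coding gene for 1207.5 kb, up to Actl7b, a testis actin-like gene. Of 19388 such coding-free stretches between protein-coding genes, 200 were longer, and the median was 16.8 kb. The stretch held 9 lncRNA genes of the Klf4 domain. Gm12506 began 234 bases from the start of Klf4 on the opposite strand, so that the 250-base promoter windows of both share 234 bases, and ran for 106.5 kb. The upper boundary lay at the far end of this stretch, with the lncRNA gene Gm34687 reaching into it and Actl7b 15.0 kb beyond it. The next domain, of 625 kb, held 10 protein-coding genes, among them Actl7a. The lower boundary was touched by the pseudogene Gm12508, and the domain below it, of 325 kb, held Zfp462 as its only protein-coding gene.

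Many domains of this length held as few coding genes. Among the 200 domains nearest in length to that of Klf4 (1200 to 1650 kb), the median was 2.5 protein-coding genes, with quartiles of 1 and 7, and 100 held 2 or fewer. Of the 323 domains at least as long, 180 held 2 or fewer. Klf4 had 2 boundaries within 1000 kb of its midpoint, against the median of 3.

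Klf5, which also acts in epithelia of the gut and in the trophectoderm, occupies 14722 bases of chromosome 14 (chr14:99298691-99313412). Its domain ran from 99050001 to 99900000, and 23.1% of domains were longer. The lower boundary (99025001 to 99050000) was 249 kb away and the upper one (99900001 to 99925000) 587 kb away, a ratio of 2.36. Klf5 stood at 30.1% of the length of its domain, between Klf2 at 46.7% and Klf4 at 17.9%. The median ratio for protein-coding genes wholly inside a domain, 3.58, lay between those of Klf5 and Klf4.

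All coding neighbours of Klf5 in the domain lay on its lower side. They were Bora, which encodes an activator of Aurora A kinase, Dis3, which encodes an exosome nuclease, and Pibf1, a centriolar gene whose end lay 43.8 kb from Klf5. On the upper side there was no coding gene for 552.8 kb, and 583 of the 19388 coding-free stretches were longer. That side held the lncRNA genes Gm41230, Gm34061 and Gm33880. The count of 4 protein-coding genes stood near the median of 5.0 for the 200 domains nearest in length (775 to 925 kb, quartiles 2 and 12). No enhancer side was assigned for Klf5, for the reason given for Klf2.

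The boundaries of the Klf5 domain lay at a gene pair and inside a paralogue. The lower boundary held the whole of Mzt1, a gene for a mitotic spindle protein, and the overlapping end of Bora, and beyond it came a domain of 2075 kb in which Dach1 was the single coding gene. The upper boundary lay inside Klf12, a Krüppel-like repressor gene of 419.7 kb on the minus strand. The final 33.8 kb of Klf12 at its 3′ side were in the Klf5 domain, and 360.9 kb lay beyond the boundary, in a domain of 1500 kb. No gene end of Klf12 was inside the interval. In all, 15.1% of protein-coding genes had any base in a boundary.

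**Figure D2:**
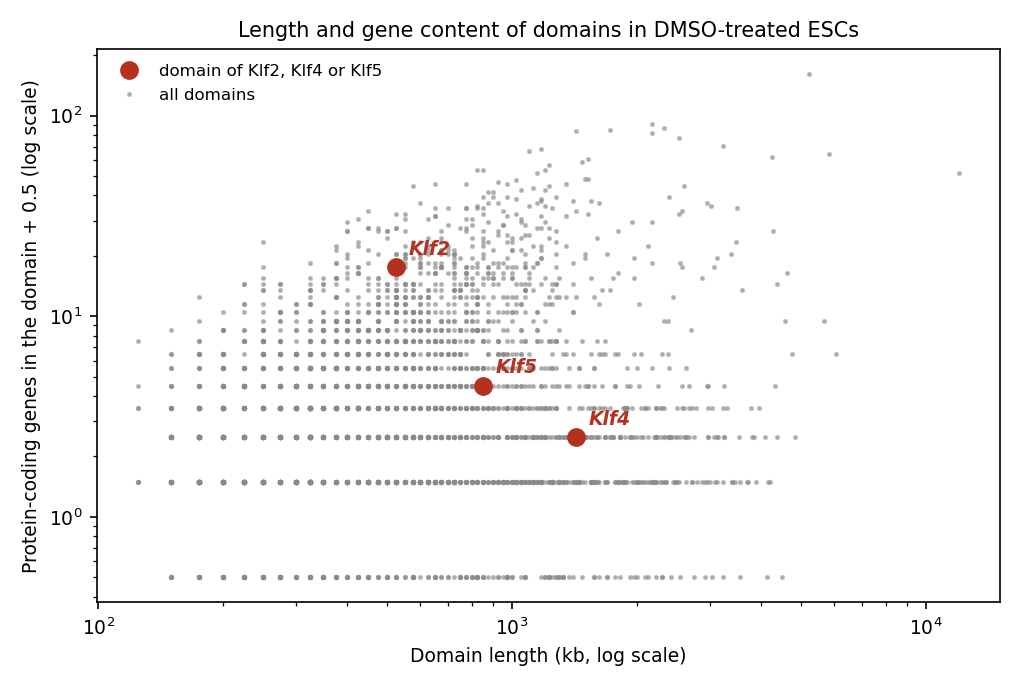
Length of each domain in kb (log scale) against its protein-coding genes plus 0.5 (log scale); red points are the domains of Klf2, Klf4 and Klf5 and grey points all 3495 domains. Klf2 stands high for its length with 17 genes in 525 kb, while Klf4 with 2 genes in 1425 kb and Klf5 with 4 in 850 kb stand among many like domains.

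Across the 17 Klf genes, the 3 naive factors were ranked 13 to 15 from the boundary outward. The nearer distance had a median of 249 kb for the 3 and of 82.5 kb for the other 14 Klf genes, whose range, 0 to 629.6 kb, enclosed them. Only Klf7, at 353 kb, and Klf6, at 629.6 kb, lay farther out, and both gaps exceed the 25 kb width of an interval. Klf6, an immediate early gene in many cells, was the only protein-coding gene in a domain of 1850 kb. Klf17, next on the inner side, lay 182 kb from a boundary, 62.4 kb nearer than Klf2.

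The other Klf genes spread down to the boundary itself. Klf1, the erythroid factor, lay at 169.7 kb in a domain with 26 protein-coding genes, Klf16 at 167 kb with 30, and Klf13 at 161 kb with 7. Klf15 and Klf9 were at 83.2 and 81.9 kb, and Klf14 at 66.0 kb. Klf11, Klf12, Klf3 and Klf10 were at 37.2, 33.8, 17.1 and 16.5 kb. For Klf12 this is the distance from its 3′ end to a boundary that lies inside the gene. Klf8, on chromosome X, was the single Klf gene with an end inside a boundary or within 10 kb of one, 1 of 17 against 18.3% of all protein-coding genes. Every Klf gene had its midpoint in a domain, and no pair of them shared one, Klf5 and Klf12 included.

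**Figure D3:**
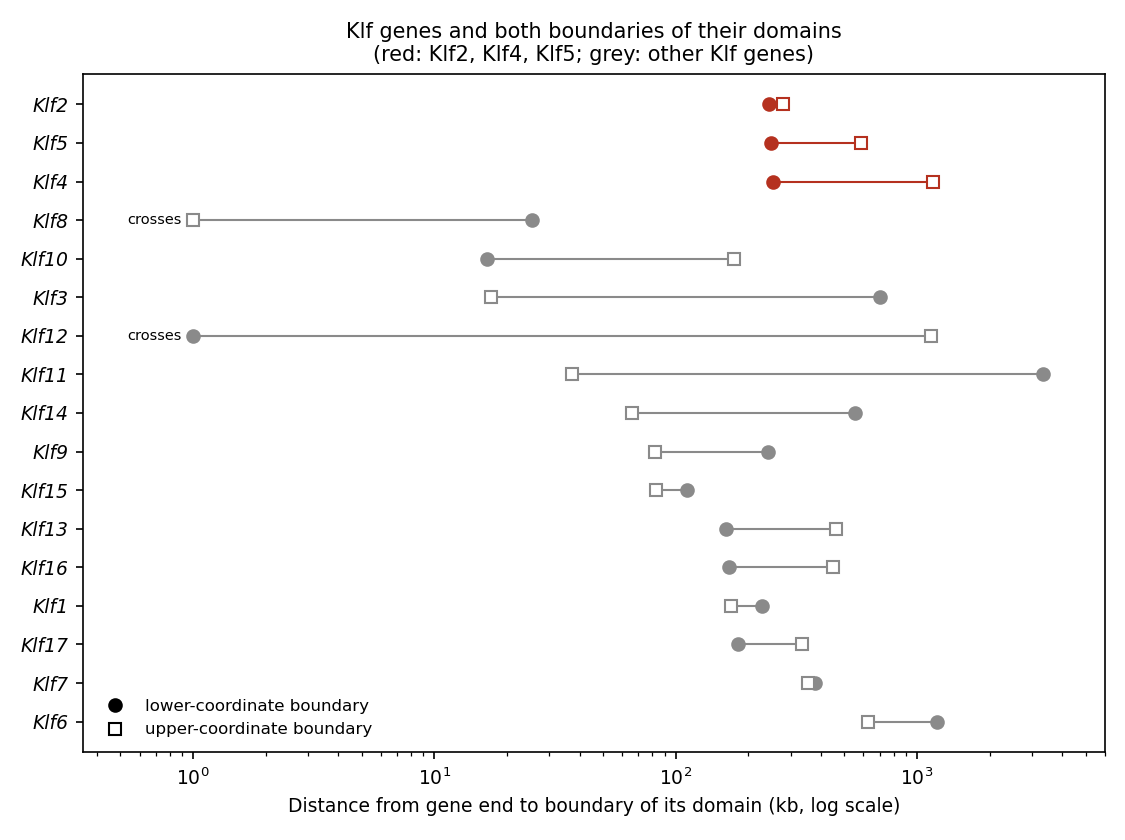
Distance in kb (log scale) from each Klf gene to the lower-coordinate (filled circle) and upper-coordinate (open square) boundary of its domain, with Klf2, Klf5 and Klf4 in red and the other 14 in grey; a gene that crosses a boundary is drawn at 1 kb and marked. The 3 red circles fall at 244 to 252 kb, while the grey genes run from a crossing to 629.6 kb for their nearer boundary.

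Genes of the same network lay nearer to boundaries as a list, with a wide spread. The 25 other pluripotency genes had a median of 73.3 kb and ranged from 0 to 353.8 kb. Of these, Dppa3 at 245 kb, Nr0b1 at 242 kb and Prdm14 at 223 kb came closest to Klf2, Klf4 and Klf5, and Mycn (283 kb) and Tdgf1 (354 kb) lay farther out. Nr0b1, which encodes a nuclear receptor, resembled Klf2 in standing near the middle of its domain, with 254 kb on the other side. The core factor genes Pou5f1 and Sox2 were at 56.03 and 25 kb, and the core factor gene Nanog was farther, at 160.4 kb. Tet1, a DNA demethylation gene, and Myc had an end inside a boundary, 2 of 25 (8%), against 11.7% of protein-coding genes. Within 10 kb the count was also 2 of 25, against 18.3%. None of the 25 shared a domain with Klf2, Klf4 or Klf5.

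The LIF and STAT3 pathway, which acts on Klf4 and Klf5, had a median of 165 kb over 12 genes. Stat3 lay 562 kb from a boundary in a domain with 56 protein-coding genes, and Lif and the receptor genes Il6st and Lifr were at 283, 143 and 27.5 kb. The kinase gene Jak1 and the phosphatase gene Ptpn11 had an end inside a boundary, 2 of 12 (16.7%), against 11.7% of protein-coding genes. Within 10 kb the count was also 2 of 12 (16.7%), below the 18.3% of protein-coding genes. The FGF and ERK pathway, which opposes the naive state, had a median of 55.05 kb over 24 genes. Of these, 6 (25%) had an end within 10 kb, beside the background of 18.3%, among them the GTPase genes Nras and Hras, the kinase gene Braf and the ligand gene Fgf8. With no window 0 of the 24 had an end inside the interval, against 11.7% of protein-coding genes. By gene midpoint within 10 kb the background was 11.2%, and 0 of the 3 naive factors met it.

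**Figure D4:**
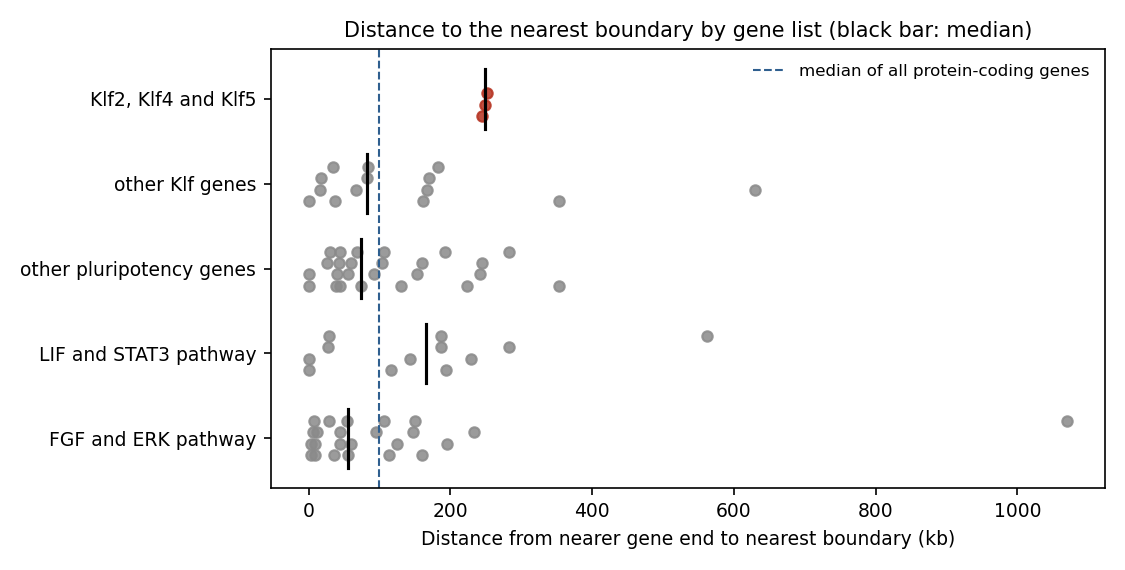
Distance in kb from the nearer gene end to the nearest boundary, 1 point per gene, for Klf2, Klf4 and Klf5 (red), the other Klf genes and 3 lists (grey), with a black bar at each median and a dashed line at the median of all protein-coding genes. The 3 red points lie together near 249 kb, and the grey medians lie at 82.5, 73.3, 165 and 55.05 kb.

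Likeness in position was measured as the larger of the differences in distance to the nearer and to the farther boundary, over 17905 other protein-coding genes wholly inside a domain. The genes most like Klf2 were Rfx4, Gm29797 and Kprp, within 2.69 to 5.27 kb. Those most like Klf4 were the odorant receptor genes Olfr624 and Olfr560, which share a domain with 83 protein-coding genes, and Fam167b, within 2.58 to 3.90 kb. Those most like Klf5 were Coq4, Rbck1 and Khk, within 3.38 to 7.16 kb. All these differences are below the 25 kb width of an interval, so the named genes are not resolved from any others within that width. The domains of the genes like Klf4 and Klf5 held 14 to 83 protein-coding genes, against 2 for Klf4 and 4 for Klf5. Those of the genes like Klf2 held 8 to 27, against 17. Candidates were drawn gene by gene, so domains with many genes supplied more of them, and no conclusion is drawn from this contrast. Among the 200 domains nearest in length, the median was 2.5 protein-coding genes for Klf4 and 5.0 for Klf5.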

How the data were processed

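BWA 0.7.17, Juicer 1.22.01 and the mm10 build are named per the submitters' processing notes. The authors deposited 1 list of boundary intervals for DMSO-treated ESCs, made from pooled libraries, giving positions without a score or depth. Which boundary caller and settings were used is not given in the sources used here. The other groups were not analysed here.

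Each of the 3515 intervals spans 25 kb, and positions are counted from 1. Genes came from RefSeq GRCm38.p6. Of 49997 annotated genes of all types, 345 on scaffolds, recognised by their break in position order, and 443 on sequences without boundaries were left out. This kept 49209 genes, of which 21521 were protein-coding. A gene belongs to a domain by its midpoint. Strand came from the RefSeq promoter table, which matched 2 of the 3 genes (Klf2 and Klf4). Being near a boundary means having either gene end in an interval or at most 10 kb from it.

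The named genes were the 3 factors, the genes in their domains, touching their boundaries or nearest beyond them, the Klf and Sp genes, 3 pathway lists and the 3 genes most like each factor in position. Other genes of the adjoining domains were named after their values were seen. The members and lists were chosen with earlier results of these data known. Alternatives changed the point measured, the domain edge, the way genes were counted and the window. The distance calculation was tested on simulated data. Python 3.11.15, numpy 2.4.6, pandas 2.3.3 and matplotlib 3.10.9 were used. Some genes of these lists and domains are not reported here.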

Additional observations from a re-analysis of the deposited data

How the results depend on the processing

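Of 38 values recomputed under an alternative, 23 kept within 25 kb (distances and lengths) or 1.5 times (counts) of the reported value and 15 moved. Boundary centres and outer edges shift distances and lengths by amounts set by the 25 kb interval width, so those outcomes were fixed in advance. The midpoint shifts a distance by part of the gene length. The tally is therefore not a measure of how firm the boundary calls are. The distances of Klf2, Klf4 and Klf5 stayed between 244 and 265 kb with the gene midpoint, the start site or the boundary centre (start site for Klf2 and Klf4 only). Measured between the outer edges of their boundaries, the domains were 575, 1475 and 900 kb long. The window moved the list counts by its construction. Within 50 kb there were 5 Klf genes (29.4%), 9 other pluripotency genes (36%), 4 LIF and STAT3 genes (33.3%) and 11 FGF and ERK genes (45.8%). The background at 50 kb was 7667 protein-coding genes (35.6%). With no window there were 0 FGF and ERK genes (0%) and 2526 protein-coding genes (11.7%). By midpoint within 10 kb the lists had 0, 1 (4%), 0 and 1 (4.17%) in the same order, against 2410 protein-coding genes (11.2%). No paired analysis was possible because the list pools its libraries and holds no value per replicate. A stricter boundary threshold could not be tried without scores, leaving out a library could not be done, and the contact depth that limits the calls is unknown.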

Other observations

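The Sp genes, the closest relatives of the Klf genes among zinc finger factors, included pairs that shared a domain by gene midpoint. Of the 9 genes Sp1 to Sp9, 3 pairs each lay in a single domain: Sp2 and Sp6 in 925 kb on chromosome 11, Sp1 and Sp7 in 600 kb on chromosome 15, and Sp3 and Sp9 in 600 kb on chromosome 2. No pair of the 17 Klf genes did. Sharing depends on how close the genes of a pair lie, which was not matched between the families, and the difference was not tested. Klf5 and Klf12 lay 552.8 kb apart, and 33.8 kb of Klf12 reached into the Klf5 domain. Sp3 and Sp4 had an end inside a boundary, 2 of 9 (22.2%), against 11.7% of protein-coding genes. Within 10 kb the count was also 2 of 9, against 18.3%. Sp7 and Sp1, at 257 and 264 kb, lay about as far from a boundary as Klf2, Klf4 and Klf5, in a domain with 23 protein-coding genes.

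Myc lay wholly inside a boundary, so it belonged to no domain, whereas its relative Mycn lay 283 kb from a boundary and was the single protein-coding gene in a domain of 800 kb.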
